A study of Mus musculus with 25 samples.

Results

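Brain myeloid cells of 5XFAD mice treated with a blocking antibody to PD-1 were compared after sorting between a gate of high and a gate of low CD45, at the time the titles call D7. The comparison uses 6 of the 25 libraries of the series, 3 from each gate, picked by the titles and the sort markers of the labels. All genes are described, and 9058 of the 19762 genes in the count table passed the filter on low counts. 5XFAD mice carry human transgenes with familial Alzheimer mutations, driven in neurons by the Thy1 promoter, and form amyloid plaques. CD11b, encoded by Itgam, is an integrin chain carried by microglia, monocytes, macrophages and granulocytes. CD45, encoded by Ptprc, is a phosphatase of all leukocytes that microglia carry at a low level and blood-derived myeloid cells at a high level. Microglia are macrophages that settle in the brain in the embryo, renew themselves there and keep an identity that depends on TGF-beta and Csf1r signalling. Monocytes and neutrophils are made in bone marrow and enter the brain from the blood. The study's design names the low gate microglia and the high gate monocyte-derived macrophages. The comparison asks how the gates differ, and where the cells of a gate came from was not measured.

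Both groups have the same strain, the same organ and the same anti-PD-1 treatment, and differ in the sort gate alone: CD11b+CD45-high cells (CD45high, n = 3) and CD11b+CD45-low cells (CD45low, n = 3). The labels used here give no age, and no sorted group without anti-PD-1 is analysed here, so nothing below describes an effect of the antibody. The labels do not say what D7 is counted from, nor that the libraries came from separate animals. P-values therefore measure library-to-library spread, which may be technical. Polyadenylated RNA was read near its 3′ end. In such bulk libraries fewer cells of a type and less RNA per cell cannot be told apart. Totals were 343439 to 498911 counts in the CD45high libraries and 546297 to 926762 in the CD45low libraries, so the CD45low values have the smaller counting error. For a gene at 0 counts the upper limit is 3 counts. That is 3.24 to 8.74 per 1000000 of the library total before TMM factors, depending on the library. A second deposited table, scaled per library, gave 479616 to 720963 whole reads in the CD45high libraries and 742832 to 1226703 in the CD45low libraries, which is 1.32 to 1.45 times as many. Levels are CPM, counts per 1000000 of a library total adjusted by TMM factors, listed for replicates 1, 2 and 3. A fold change is the log2 difference CD45high minus CD45low with its standard error (SE). Calls rest on an adjusted p below 0.05 in edgeR's quasi-likelihood test with Benjamini-Hochberg adjustment over all tested genes.

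The sort antigens followed the gates. Ptprc stood at 1247, 1586 and 1151 CPM in the CD45high libraries and 447, 370.0 and 481 CPM in the CD45low libraries. The groups did not overlap, and the gene was called higher in the CD45high gate (1.62 ± 0.18, adjusted p = 7.07e-07). Itgam, on which both gates were sorted, stood at 1466, 1229.9 and 1144 CPM in the CD45high libraries and 839, 774 and 1111 CPM in the CD45low libraries. The groups were separate but close, at 0.50 ± 0.19, adjusted p = 0.0366. That call ended on the reads of the second table (log2 0.46, adjusted p = 0.0586), with library totals in place of TMM factors (0.24, adjusted p = 0.246), and without CD45low replicate 1 (0.45, adjusted p = 0.108), CD45low replicate 2 (0.41, adjusted p = 0.145), CD45high replicate 1 (0.39, adjusted p = 0.130) or CD45high replicate 2 (0.55, adjusted p = 0.0510).

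Some libraries stood apart within their gate. In a principal component analysis of the 11 sorted libraries of D7 and D14, the gates parted on the first component (70.6% of the variance). CD45low replicate 3 lay nearest to the CD45high libraries, at -45.97 against -66.14 and -65.81 for the other D7 libraries of its gate and 71.49 to 91.92 for the CD45high libraries of D7. The summed level of the 37 neutrophil genes in the count table was 6804 CPM in it, against 1706 and 1469 CPM in CD45low replicates 1 and 2 and 31253 to 34001 CPM in the CD45high gate. The summed level of the classical monocyte list was 4830.4 CPM against 1581 and 1195 CPM in CD45low replicates 1 and 2, and 26521 to 28728 CPM in the CD45high gate. CD45low replicate 3 also held the basophil and mast cell transcript Fcer1a at 22.2 CPM and Cpa3 at 11.1 CPM, where the other D7 libraries had 0 or at most 1 count. In the CD45high gate the microglial list summed to 21143 CPM in replicate 1, 16352 in replicate 2 and 10187 in replicate 3, against 34166 to 44607 CPM in the CD45low gate. Its members stood at a median of 36.9%, 23.3% and 10.2% of their CD45low mean in these 3 libraries. CD45high replicate 1 also lay apart on the second component, which held 5.6% of the variance, at 50.07 against 8.26 and -13.66. The part of these transcripts in single gene differences was not tested. List counts and fitted folds are given below without a library wherever leaving it out ended a call or moved a named fold by over 1.5 times. Genes with at most 3 counts in a gate are given as ratios, or as lower bounds against 0 counts, with their range when 1 D7 library is left out.

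**Figure D1:**
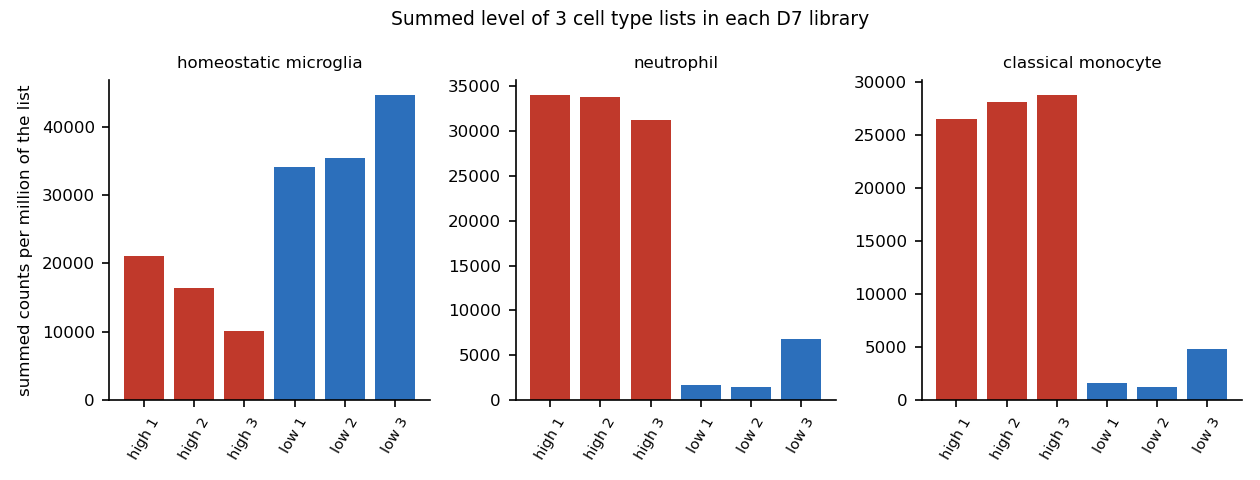
Summed CPM (vertical axis, starting at 0) of the homeostatic microglia, neutrophil and classical monocyte lists in each of the 6 D7 libraries (horizontal axis; red, CD45high replicates 1 to 3; blue, CD45low replicates 1 to 3). The microglial sum is 10187 to 21143 CPM in the CD45high bars and 34166 to 44607 CPM in the CD45low bars, and CD45low replicate 3 has the highest neutrophil (6804 CPM) and monocyte (4830.4 CPM) sums of its gate.

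The gates differed across a large part of the transcriptome. Of 9058 tested genes 3874 were called, 2021 higher (22.3%) and 1853 lower (20.5%) in the CD45high gate, 42.8% in all, with 4470 at an unadjusted p under 0.05. The median log2 fold change was -0.08 over all tested genes, 1.87 among genes called higher and -1.66 among genes called lower. Changes beyond 8-fold were more often increases, 607 of the called genes against 287. The limit of 3 counts over a gate was 2.79 CPM in the CD45high gate and 1.21 CPM in the CD45low gate. Decreases thus reach it sooner, and the part of depth in this asymmetry was not tested. The 3 and 3 libraries did not overlap for 1901 of the genes called higher and 1766 of those called lower. Over all tested genes the libraries did not overlap for 25.5% in each direction. With library totals in place of TMM factors the median of all genes shifted by -0.27 and 4228 genes were called, 39.1% of them higher against 52.2% with TMM. Requiring a change beyond 2-fold in the test itself (glmTreat) left 1098 genes higher and 748 lower. The counts of called list members below stand beside the 22.3% and 20.5% of all tested genes.

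**Figure D2:**
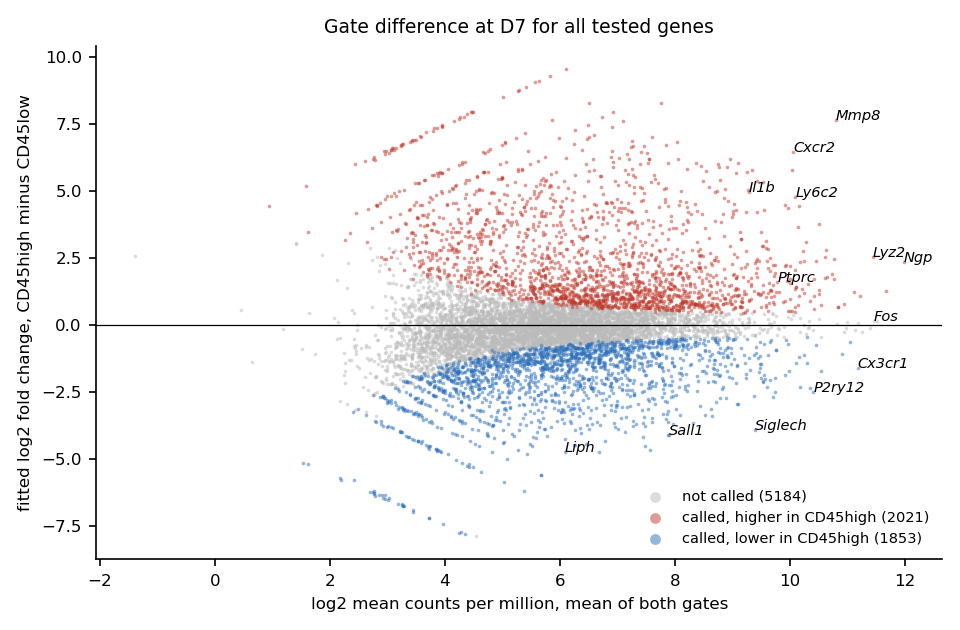
Fitted log2 fold change, CD45high minus CD45low at D7 (vertical axis), against the log2 mean CPM of both gates (horizontal axis) for the 9058 tested genes; red, 2021 called higher; blue, 1853 called lower; grey, not called. The diagonal streaks at low abundance are genes with few or 0 counts in one gate, and Mmp8 and Cxcr2 stand out among abundant genes.

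**Figure D3:**
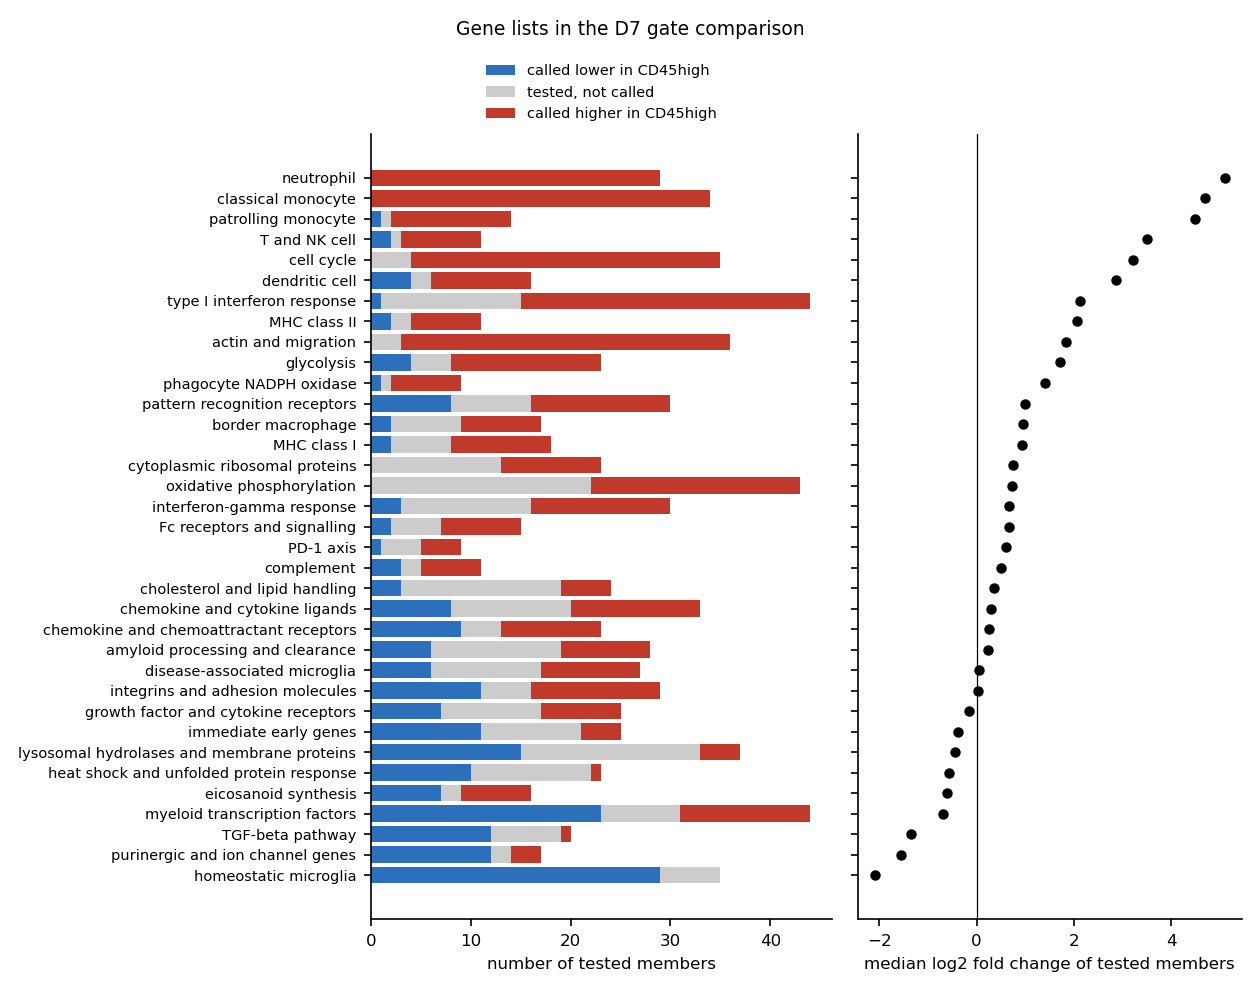
Left, number of tested members of each gene list with at least 9 tested members (horizontal axis) called higher (red), called lower (blue) or not called (grey) in the CD45high gate; right, the median log2 fold change of the tested members. The neutrophil list (29 of 29 called higher, median 5.09) is at the top and the homeostatic microglia list (29 of 35 called lower, median -2.09) at the bottom.

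Genes of microglial identity were lower in the CD45high gate. Of 35 list members, all tested, 29 were called lower, 0 higher and 6 in neither direction, with a median of -2.09 against -0.08 over all genes. P2ry12, a purinergic receptor that guides microglial processes, stood at 703, 449 and 82.4 CPM in the CD45high libraries and 2366, 2144 and 2412 CPM in the CD45low libraries. The groups did not overlap, CD45high replicate 3 was lowest, and the fold change was -2.51 ± 0.42, adjusted p = 6.76e-05. Tmem119, a membrane protein used as a microglial marker, stood at 759, 458 and 38.9 CPM in the CD45high libraries and 1301, 1361 and 1881 CPM in the CD45low libraries. CD45high replicate 1 held more of it than the other 2 libraries of its gate, and the difference was -1.88 ± 0.49, adjusted p = 0.00437. Sall1, a transcription factor needed for microglial identity, stood at 56.4, 26.7 and 2.29 CPM in the CD45high libraries and 463, 436 and 448 CPM in the CD45low libraries. No CD45high library came near the CD45low range, and the fold change was -4.11 ± 0.40, adjusted p = 1.01e-07. Siglech, a lectin of microglia and plasmacytoid dendritic cells, stood at 119, 128 and 11.4 CPM in the CD45high libraries and 593, 1582 and 1592 CPM in the CD45low libraries, with CD45low replicate 1 well below the others of its gate (-3.93 ± 0.48, adjusted p = 2.09e-06). Beside these values stand the 21143, 16352 and 10187 CPM that the whole list summed to in CD45high replicates 1, 2 and 3. Tmem119 was at -2.65 without CD45high replicate 1 and -1.29 without CD45high replicate 3. Sall1 was at -5.08 without CD45high replicate 1 and -3.42 without CD45high replicate 3. P2ry12 was at -3.15 without CD45high replicate 1. Siglech was at -3.32 without CD45high replicate 3.

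The size of the difference varied over the list. The fructose transporter Slc2a5 had -4.16 ± 0.41, the transcription factor Sall3 -3.60 ± 0.33, the junction protein Jam2 -3.61 ± 0.52 and the orphan receptor Gpr34 -3.35 ± 0.57. Golm1 had -2.72 ± 0.26 and the ribonuclease Rnase4 -2.68 ± 0.28. The fractalkine receptor Cx3cr1, which monocytes also carry, stood at 1751, 1064 and 668 CPM in the CD45high libraries and 3168, 3109.7 and 4151 CPM in the CD45low libraries, a smaller difference (-1.59 ± 0.27, adjusted p = 8.26e-05). Csf1r, the receptor that both microglia and monocytes need to survive, had -0.62 ± 0.21, adjusted p = 0.0207. Not called were Selplg at 0.03, Cst3 at 0.12, C1qa at -0.25, C1qb at -0.40, Mertk at -1.81 and 4632428N05Rik at -0.11, and C1qb and Mertk were called lower on the reads of the second table (-0.84 and -3.38). Without CD45high replicate 1, 31 members were called lower with a median of -2.65, and without CD45high replicate 3 28 were, with a median of -1.70. Slc2a5 was at -5.35 without CD45high replicate 1 and -3.49 without CD45high replicate 3. Gpr34 was at -4.56 without CD45high replicate 1. Csf1r was not called without CD45low replicate 3 (-0.42, adjusted p = 0.0670), CD45high replicate 2 (-0.61, adjusted p = 0.0604) or CD45high replicate 3 (-0.42, adjusted p = 0.109).

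**Figure D4:**
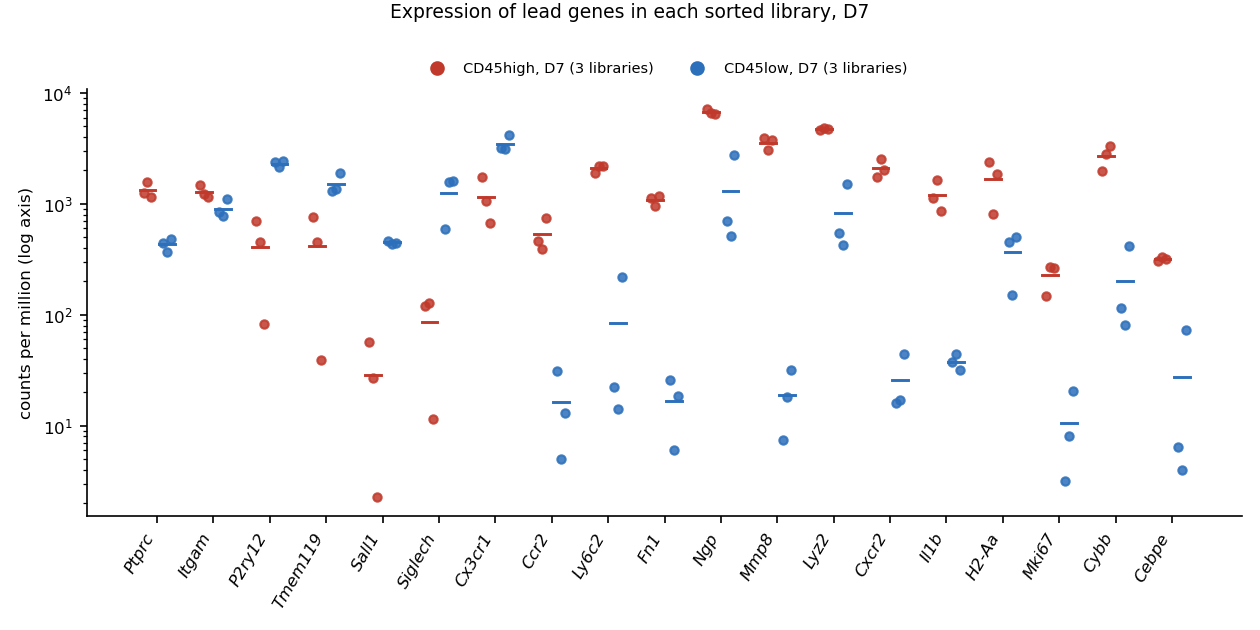
CPM with TMM factors (vertical log axis) of 19 genes (horizontal axis) in each of the 6 D7 libraries; red, CD45high; blue, CD45low; points, libraries; bars, group means. The gates do not overlap for any of these genes, and the spread is widest for microglial genes in the CD45high gate and for myeloid genes such as Ly6c2 and Cebpe in the CD45low gate.

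Genes of classical monocytes were higher in the CD45high gate. All 34 tested of 37 list members were called higher, with a median of 4.70. With no filter 35 of 35 were called higher, with a median of 4.74. Ccr2, the receptor that draws monocytes out of the bone marrow, stood at 464, 395 and 748 CPM in the CD45high libraries and 31, 5.01 and 13 CPM in the CD45low libraries. The lowest CD45high library exceeded the highest CD45low library many times over (5.01 ± 0.45, adjusted p = 3.52e-08). Ly6c2, a surface antigen of classical monocytes, stood at 1889.9, 2213 and 2198 CPM in the CD45high libraries and 22.4, 14 and 218 CPM in the CD45low libraries. CD45low replicate 3 carried most of what the low gate held (4.78 ± 0.62, adjusted p = 3.93e-06). Fn1, fibronectin, had 6.04 ± 0.31, adjusted p = 4.03e-11, the glycoprotein Emb 6.20 ± 0.32, adjusted p = 4.43e-11, Cd44, a hyaluronan receptor, 5.13 ± 0.27, adjusted p = 4.43e-11, and Gda, a guanine deaminase, 6.18 ± 0.36. Other members called higher were Plac8 (6.05), the calcium-binding gene S100a4 (6.68) and Anxa2 (5.32). The smallest difference among the tested members was that of Ms4a6b (1.24 ± 0.29). Genes of patrolling monocytes moved the same way, with 12 of 14 tested called higher, 1 lower and a median of 4.49. Among them Itgal, an integrin chain of LFA-1, had 6.04 ± 0.34, Spn 5.63 ± 0.45, Ace 4.82 ± 0.44 and the nuclear receptor Nr4a1, which these cells need, 2.85 ± 0.26. Treml4 had 138 counts against 2, a ratio of 159 (95% counting interval 43.1 to 1323), Ear2 161 against 3, and Pou2f2 was lower at -1.06 ± 0.18. Without CD45low replicate 3 the medians were 5.71 for classical and 5.30 for patrolling monocytes. For Treml4 the ratio was 94.7 (without CD45low replicate 2) to 169 (without CD45high replicate 1) and for Ear2 76.7 (without CD45low replicate 1) to 221 (without CD45low replicate 2). Treml4 had 0 CD45low counts without CD45low replicate 3. Spn was at 5.03 without CD45low replicate 2 and 7.35 without CD45low replicate 3. Ccr2 was at 6.05, Fn1 at 6.64 and S100a4 at 7.88 without CD45low replicate 1. Ace was at 5.96 without CD45low replicate 2. Ly6c2 was at 6.84, Plac8 at 6.79 and Anxa2 at 6.07 without CD45low replicate 3.

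Neutrophil genes were higher in the CD45high gate, where the list summed to 31253 to 34001 CPM against 26521 to 28728 CPM for classical monocytes. All 29 tested of 41 list members were called higher, with a median of 5.09. All 29 were called higher without each D7 library in turn, with a median of 6.36 without CD45low replicate 3. Such counts are partly set by the filter, which can pass a gene on its level in the CD45high gate alone. With no filter 29 of 34 were called higher, with a median of 4.50. Mmp8, the collagenase of neutrophil granules, stood at 3889, 3027 and 3758 CPM in the CD45high libraries and 7.48, 18.1 and 31.5 CPM in the CD45low libraries. The gates were far apart in every library (7.65 ± 0.35, adjusted p = 1.75e-11). Cxcr2, the receptor through which neutrophils answer CXC chemokines, stood at 1741, 2537 and 2038 CPM in the CD45high libraries and 16, 17 and 44.4 CPM in the CD45low libraries (6.46 ± 0.31, adjusted p = 1.75e-11). Ngp, a granule protein of developing neutrophils, had the most counts of all genes in the CD45high gate and stood at 7185, 6578 and 6508 CPM in the CD45high libraries and 695, 510.4 and 2748 CPM in the CD45low libraries. The low gate was not free of it, CD45low replicate 3 held most, and the fold change was 2.37 ± 0.43, adjusted p = 0.000173. Retnlg had 5.72 ± 0.27, adjusted p = 1.75e-11, Trem1, a receptor that amplifies inflammatory signals, 6.71 ± 0.42, adjusted p = 4.82e-10, the granule protease Prtn3 5.79 ± 0.65, adjusted p = 6.85e-07, the gelatinase Mmp9 5.77 ± 0.41 and G0s2, an inhibitor of lipid breakdown, 5.46 ± 0.36. In the gate that the design names monocyte-derived macrophages, the sum of 37 neutrophil genes lay above that of 35 classical monocyte genes in every library. Such sums depend on the length of a list and on its abundant members, such as Ngp, so they cannot rank cell types. Mpo and Elane, granule enzymes of neutrophil precursors, stood at 13.3, 44.6 and 57.2 CPM against 0 CPM in all 3 and 23.2, 29.7 and 34.3 CPM against 0 CPM in all 3. Against the limit that 0 counts over the 3 CD45low libraries allow, they were at least 33.7-fold and 24.5-fold higher. For Mpo the lower bound was 20.1 (without CD45low replicate 2) to 42.6 (without CD45high replicate 1) and for Elane 14.6 (without CD45low replicate 2) to 26.6 (without CD45high replicate 1). Ngp was at 3.48, Trem1 at 8.03 and Mmp9 at 6.77 without CD45low replicate 3.

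Eosinophil transcripts were also in the CD45high gate, and the list summed to 878 to 1441 CPM there against 47.0 to 165 CPM. Epx, eosinophil peroxidase, had 195 counts over the 3 CD45high libraries and 1 over the CD45low libraries, a depth-adjusted ratio of 448 (95% counting interval 79.5 to 17802). Prg2, the major basic protein of eosinophil granules, had 285 and 3 counts, a ratio of 218 (95% counting interval 74 to 1066). The ribonucleases Ear1 and Ear6 belong to a multigene family and are uncertain as single genes. Ear1 stood at 245, 315 and 169 CPM against 2.14, 0 and 0 CPM, and Ear6 at 23.2, 77.2 and 93.8 CPM against 0 CPM in all 3. Of 19 genes of the eosinophil, basophil and mast cell list 6 were tested and 5 called higher, and Siglec5 was not called at -0.62. With no filter 8 of 17 were called higher, with a median of 3.31. Il5ra, the interleukin-5 receptor, and Tpsb2, a mast cell tryptase, were at 0 counts in all 6 libraries. Alox15, a lipoxygenase of eosinophils, had 5.81 ± 0.55, adjusted p = 6.66e-08. For Epx the ratio was 268 (without CD45low replicate 2) to 515 (without CD45high replicate 1), for Prg2 171 (without CD45low replicate 3) to 391 (without CD45low replicate 2) and for Ear1 174 (without CD45low replicate 2) to 349 (without CD45high replicate 3). For Ear6 the lower bound was 33.9 (without CD45low replicate 2) to 71.4 (without CD45high replicate 1). Epx had 0 CD45low counts without CD45low replicate 1 and Ear1 had 0 CD45low counts without CD45low replicate 1. Alox15 was at 5.204 without CD45low replicate 2 and 7.93 without CD45low replicate 3.

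Promoter sequences are shown for Mmp8 and Ngp, neutrophil granule genes among the 5 with most counts in the CD45high gate, and for the microglial gene P2ry12. They are the 250 bases before the start in the RefSeq table of GRCm38.p6, which is not the mm9 build of the counts. Capitals mark the letters TTGCNNAA or TTNNGCAA of the word bound by C/EBP factors, and GAGGAAGT or ACTTCCTC of the word bound by PU.1, on either strand. Mmp8 lies at chr9:7558179-7558428 on the plus strand, Ngp at chr9:110419558-110419807 on the plus strand and P2ry12 at chr3:59262986-59263235 on the minus strand, each printed 5′ to 3′ in the direction of its gene.
Mmp8: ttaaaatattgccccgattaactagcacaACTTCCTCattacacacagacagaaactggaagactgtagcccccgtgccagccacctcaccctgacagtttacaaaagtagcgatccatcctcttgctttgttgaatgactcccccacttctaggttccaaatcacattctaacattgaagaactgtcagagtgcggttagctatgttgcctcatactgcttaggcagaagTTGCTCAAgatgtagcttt
Ngp: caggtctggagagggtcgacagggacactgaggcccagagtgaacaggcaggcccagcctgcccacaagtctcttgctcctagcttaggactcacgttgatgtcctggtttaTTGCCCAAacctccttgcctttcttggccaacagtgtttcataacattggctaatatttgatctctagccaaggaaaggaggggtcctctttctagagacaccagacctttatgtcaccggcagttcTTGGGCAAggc
P2ry12: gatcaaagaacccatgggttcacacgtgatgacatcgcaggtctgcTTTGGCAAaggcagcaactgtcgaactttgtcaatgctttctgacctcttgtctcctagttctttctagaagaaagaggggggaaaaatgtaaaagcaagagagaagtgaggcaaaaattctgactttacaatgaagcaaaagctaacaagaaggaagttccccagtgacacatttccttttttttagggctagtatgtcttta
Mmp8 held 1 C/EBP word and 1 PU.1 word, Ngp 2 C/EBP words and P2ry12 1. Of the 37 neutrophil list members with a promoter in the table, of 41, 11 held the C/EBP word (29.7%) and 8 the PU.1 word (21.6%). Over all 27025 promoters these shares were 9.55% and 2.44%, and over the 7367 tested genes with a promoter 7.53% and 2.69%. A match describes letters and is not a bound site, and the list holds families of near-identical genes. For the microglial list 24 of 35 members had a promoter, 2 with the C/EBP word (8.33%) and 1 with the PU.1 word (4.17%). Shares of so few promoters are uncertain.

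Transcripts of the factors that bind these words differed between the gates. Spi1, which encodes PU.1, the factor that myeloid cells cannot form without, had 1.101 ± 0.19, adjusted p = 0.000128. Cebpe, which neutrophils need for their granules, stood at 305, 329.8 and 320.3 CPM in the CD45high libraries and 6.41, 4.01 and 72.2 CPM in the CD45low libraries. CD45low replicate 3 held most of the low gate's counts (3.80 ± 0.60, adjusted p = 3.60e-05). Cebpb (1.49 ± 0.22) and Cebpd (1.30 ± 0.20) were higher as well, while Cebpa was lower (-1.91 ± 0.24, adjusted p = 2.80e-06). Of 44 tested of 46 myeloid transcription factors 13 were called higher and 23 lower, with a median of -0.70. Lower in the CD45high gate were the macrophage factor Maf (-2.46 ± 0.30, adjusted p = 2.03e-06), Mef2c (-2.49 ± 0.25), Irf8, which microglia need to mature (-1.47 ± 0.19, adjusted p = 3.59e-06), and Myc (-2.47 ± 0.28). Higher were Runx3 (3.71 ± 0.49), Klf13 (1.501 ± 0.20), Bhlhe40 (3.66 ± 0.61), Stat3 (1.52 ± 0.26) and the granulocyte repressor Gfi1, with 40 counts against 1. Irf7 had 0 counts in all 6 libraries and reads in the second table, where it was called higher (3.05 ± 0.31, adjusted p = 2.34e-07). For Gfi1 the ratio was 50.2 (without CD45high replicate 2) to 128 (without CD45high replicate 3). Gfi1 had 0 CD45low counts without CD45low replicate 3. Cebpe was at 3.196 without CD45low replicate 2 and 5.89 without CD45low replicate 3.

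Markers of other cell types were checked beside these groups. Lymphocyte transcripts were few and higher in the CD45high gate: 8 of 11 tested members of the T and NK cell list were called higher and 2 lower, and the list summed to 570 to 806 CPM against 195 to 217 CPM. Gzmb, a protease of cytotoxic lymphocytes and some myeloid cells, stood at 36.5, 68.3 and 16 CPM against 0 CPM in all 3, at least 31.4-fold higher. Ccl5 had 4.54 ± 0.38, adjusted p = 1.72e-08, and Lck, a kinase of T cells, 3.46 ± 0.84, adjusted p = 0.00229. Klrk1 had 3.55 ± 0.73, and Nkg7 25 counts against 1. Cd3e stood at 13.3, 2.97 and 0 CPM against 0 CPM in all 3 and was not tested on counts. Cd2 and Gzma had 0 counts in every library but reads in the second table, where both were called higher (6.66 and 8.60). Il7r (-2.26 ± 0.72) and Foxp3, the factor of regulatory T cells (-0.71 ± 0.27), were lower, although Cd3d, Cd3e and Cd3g were at 0 counts in the CD45low gate. Without CD45high replicate 1, 5 members were called higher, on reads 13 of 17 were, and with no filter 14 of 28 were. The B cell list summed to 41.6 to 66.3 CPM against 51.3 to 68.5 CPM with 0 called in either direction, and Ms4a1, Pax5 and Ebf1 at 0 counts in all 6 libraries. Dendritic cell genes split, with 10 of 16 tested called higher and 4 lower, and a median of 2.85. With no filter 11 of 23 were called higher and 4 lower, with a median of 1.25. The list sums overlapped, at 2465.8 to 3378.5 CPM in the CD45high gate and 2274.5 to 3396.5 CPM in the CD45low gate. The monocyte-derived dendritic cell lectin Cd209a had 6.47 ± 0.62, adjusted p = 8.32e-08, Cd24a 4.98 ± 0.54, Naaa 1.31 ± 0.21 and Flt3 2.78 ± 0.75. Ifi205 had 71 counts against 3, Cd7 47 against 3 and Kmo 22 against 0. Fscn1 (-2.95 ± 0.37), Tcf4 (-2.23 ± 0.23), Batf3 (-1.18 ± 0.34) and Siglech were lower. For Nkg7 the ratio was 35.7 (without CD45low replicate 1) to 66.9 (without CD45high replicate 2), for Ifi205 41.3 (without CD45high replicate 3) to 97.4 (without CD45low replicate 2) and for Cd7 28.8 (without CD45high replicate 1) to 50.4 (without CD45high replicate 3). For Gzmb the lower bound was 18.8 (without CD45low replicate 2) to 43.9 (without CD45high replicate 3) and for Kmo 10.1 (without CD45low replicate 2) to 19 (without CD45high replicate 2). Nkg7 had 0 CD45low counts without CD45low replicate 2. Cd24a was at 4.37 without CD45low replicate 2 and 6.69 without CD45low replicate 3. Flt3 was at 4.39 without CD45low replicate 1. Il7r was at -4.67 and Cd209a at 5.67 without CD45high replicate 1. Il7r was not called without CD45low replicate 1 (-1.89, adjusted p = 0.0686), CD45high replicate 2 (-1.87, adjusted p = 0.0764) or CD45high replicate 3 (-1.52, adjusted p = 0.0912). Foxp3 was not called without CD45low replicate 1 (-0.76, adjusted p = 0.0634), CD45low replicate 2 (-0.65, adjusted p = 0.117), CD45low replicate 3 (-0.71, adjusted p = 0.0683), CD45high replicate 1 (-0.51, adjusted p = 0.163) or CD45high replicate 2 (-0.61, adjusted p = 0.129). Lck was not called without CD45high replicate 1 (2.15, adjusted p = 0.0583). Flt3 was not called without CD45high replicate 3 (2.21, adjusted p = 0.0573). Batf3 was not called without CD45high replicate 3 (-0.83, adjusted p = 0.0714).

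Transcripts of non-myeloid brain cells were present at low levels in both gates. The oligodendrocyte list summed to 969 to 1316 CPM in the CD45high gate and 813 to 1029 CPM in the CD45low gate, with Mbp, myelin basic protein, at 540.4, 359 and 535 CPM in the CD45high libraries and 262, 116 and 317 CPM in the CD45low libraries (1.06 ± 0.27, adjusted p = 0.00357). Mag, another myelin gene, had -1.48 ± 0.53, adjusted p = 0.0287. The astrocyte list summed to 261 to 494 CPM against 396 to 579 CPM, Gfap had 3 and 6 counts, and the glutamate transporter Slc1a3, the 1 member called, had -3.36 ± 0.44, adjusted p = 3.83e-06. Ttr, transthyretin of the choroid plexus epithelium, stood at 46.4, 50.5 and 57.2 CPM in the CD45high libraries and 271, 223 and 102 CPM in the CD45low libraries (-1.96 ± 0.46, adjusted p = 0.00179), and the choroid plexus list summed to 83.2 to 98.4 CPM against 156 to 414 CPM. Enpp2 had 3 counts against 137, and Igfbp2 0 against 16, a call that ended without CD45low replicate 1 or 2 or any of the CD45high libraries (adjusted p 0.0666 to 0.106). Neuronal genes summed to 190 to 239 CPM against 72.7 to 141 CPM, and Thy1, which T cells also carry, was the 1 member called (2.40 ± 0.45). The erythroid and platelet list summed to 82.4 to 131 CPM against 179 to 280 CPM, hemoglobin genes had at most 13 counts in a gate, and the platelet gene Gp9 was lower in the CD45high gate (-2.78 ± 0.40, adjusted p = 1.34e-05). Treml1 had 2 counts against 74. Pecam1, an adhesion molecule of endothelium and leukocytes, stood at 89.5, 53.5 and 38.9 CPM in the CD45high libraries and 254, 299 and 37 CPM in the CD45low libraries, and CD45low replicate 3 lay below every other D7 library (-1.77 ± 0.49, adjusted p = 0.00657). The endothelial list, which holds Pecam1, summed to 422 to 603 CPM against 617 to 819 CPM, and Acta2, an actin of smooth muscle and pericytes, was higher (3.27 ± 0.75). The part of these transcripts in other differences was not tested. For Enpp2 the ratio was 11.8 (without CD45high replicate 3) to 42.9 (without CD45high replicate 1) and for Treml1 9.55 (without CD45high replicate 3) to 18.6 (without CD45low replicate 2). Treml1 had 0 CD45high counts without CD45high replicate 2. Slc1a3 was at -4.04 without CD45high replicate 1 and -2.70 without CD45high replicate 3. Acta2 was at 3.96 without CD45low replicate 1. Thy1 was at 2.99 without CD45low replicate 3. Gp9 was at -2.18 without CD45high replicate 3. Mag was not called without CD45low replicate 2 (-1.43, adjusted p = 0.0608), CD45low replicate 3 (-1.31, adjusted p = 0.0680) or CD45high replicate 1 (-1.07, adjusted p = 0.114).

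Macrophages of the brain borders, the meninges and perivascular spaces, share CD45 levels with infiltrating cells. Of 17 tested of 20 border macrophage genes 8 were called higher and 2 lower, with a median of 0.95. Called higher were the coagulation factor F13a1 (3.91 ± 0.38, adjusted p = 1.10e-07), Clec12a (3.89 ± 0.38), Clec4n (3.62 ± 0.60), Ms4a6c (2.46 ± 0.29), Clec10a (2.33 ± 0.52) and Tgfbi (2.40 ± 0.20), and called lower Stab1 (-1.40 ± 0.32) and the chemokine Ccl24 (-1.95 ± 0.72). The mannose receptor Mrc1 stood at 269, 125 and 50.3 CPM in the CD45high libraries and 128, 38.1 and 94.4 CPM in the CD45low libraries and was not called (log2 0.73, adjusted p = 0.232), and the groups overlapped. Cd163, a hemoglobin scavenger receptor, was not called either, at 0.46 with adjusted p = 0.431. The median of the list was 2.01 without CD45low replicate 1, with 10 called higher. F13a1 was at 4.63 and Clec10a at 3.33 without CD45low replicate 1. Cd163 was called higher without that library (1.23, adjusted p = 0.0425). Ccl24 was at -2.94 without CD45high replicate 1. Ccl24 was not called without CD45low replicate 1 (-1.60, adjusted p = 0.128), CD45low replicate 2 (-1.82, adjusted p = 0.0833), CD45high replicate 2 (-2.02, adjusted p = 0.0803) or CD45high replicate 3 (-1.23, adjusted p = 0.158).

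Genes known to rise in disease-associated microglia near plaques split between the gates. Of 27 tested of 28 members 10 were called higher and 6 lower, against 22.3% and 20.5% of all tested genes. The median was 0.04 against -0.08 over all tested genes. Higher were the lectin Clec7a (3.01 ± 0.44, adjusted p = 1.68e-05), the inhibitory receptor Lilrb4 (3.45 ± 0.22, adjusted p = 6.11e-10), the chemokine Ccl6 (2.38 ± 0.21), Cd52 (2.77 ± 0.31), Itgax (2.38 ± 0.44), the signalling adaptor Tyrobp (1.07 ± 0.20) and the lipid carrier Apoe (0.87 ± 0.21, adjusted p = 0.00250). Lower were the protease inhibitor Cst7 (-1.33 ± 0.41, adjusted p = 0.0132), Ctsl (-1.97 ± 0.21), Cadm1 (-2.27 ± 0.29) and Timp2 (-0.88 ± 0.19). Clec7a stood at 199, 258 and 373 CPM in the CD45high libraries and 22.4, 67.2 and 5.55 CPM in the CD45low libraries, without overlap. Axl had 0.21, Spp1 0.06 and Lpl -0.51, none of them called. Fam20c (-1.19 ± 0.45) and Ank (-1.105 ± 0.32) were lower as well. The median was -0.27 without CD45high replicate 1 and -0.22 with library totals, and 3 members were called lower without CD45low replicate 1 or CD45high replicate 3. Clec7a was at 4.16 without CD45low replicate 2. Cd52 was at 3.38 without CD45low replicate 3. Cst7 was not called without CD45low replicate 1 (-0.73, adjusted p = 0.146) or CD45high replicate 3 (-0.90, adjusted p = 0.0953). Fam20c was not called without CD45low replicate 1 (-1.06, adjusted p = 0.106), CD45low replicate 3 (-1.13, adjusted p = 0.0680), CD45high replicate 2 (-0.95, adjusted p = 0.150) or CD45high replicate 3 (-0.93, adjusted p = 0.166). Ank was not called without CD45low replicate 1 (-0.80, adjusted p = 0.0699), CD45high replicate 2 (-0.89, adjusted p = 0.0573) or CD45high replicate 3 (-0.87, adjusted p = 0.0645).

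Of 28 tested genes that make and clear amyloid 9 were called higher and 6 lower, against 22.3% and 20.5% of all tested genes, with a median of 0.23 that was -0.03 with library totals. App, the amyloid precursor, had 0.98 ± 0.17, adjusted p = 0.000142, the scavenger receptors Msr1 2.87 ± 0.36 and Cd36 3.40 ± 0.93, the sorting receptor Sorl1 4.19 ± 0.46, adjusted p = 4.32e-07, the lipoprotein receptor Scarb1 2.15 ± 0.34 and Mmp9 5.77 ± 0.41. The sheddases Adam10 (-0.87 ± 0.24) and Adam17 (-1.21 ± 0.20), the cholesterol exporter Abca1 (-3.42 ± 0.46, adjusted p = 6.34e-06) and Bin1 (-1.44 ± 0.27) were lower in the CD45high gate, as was the receptor Lrp1 (-0.56 ± 0.19). Trem2, the lipid-sensing receptor that pairs with Tyrobp, stood at 414, 219.8 and 162 CPM in the CD45high libraries and 756, 778 and 1299.7 CPM in the CD45low libraries. Its ranges did not overlap, and it was lower in the CD45high gate (-1.84 ± 0.29, adjusted p = 3.79e-05). App counts are those of the mouse gene symbol, and whether reads of the human transgene map there was not tested. Cd36 was at 2.73 without CD45low replicate 2 and 4.03 without CD45low replicate 3. Abca1 was at -4.28 without CD45high replicate 1 and -2.69 without CD45high replicate 3. Sorl1 was at 4.86 without CD45low replicate 1. Mmp9 was at 6.77 without CD45low replicate 3. Lrp1 was not called without CD45low replicate 3 (-0.44, adjusted p = 0.0636), CD45high replicate 2 (-0.45, adjusted p = 0.116) or CD45high replicate 3 (-0.50, adjusted p = 0.0743). Adam10 was not called without CD45high replicate 3 (-0.61, adjusted p = 0.0590).

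Interferon-induced antiviral genes were higher in the CD45high gate. Of 44 tested of 46 type I interferon genes 29 were called higher and 1 lower, with a median of 2.13. Slfn4, a Schlafen gene of myeloid cells, stood at 1044, 1726 and 1068 CPM in the CD45high libraries and 16, 16 and 44.4 CPM in the CD45low libraries (5.77 ± 0.35, adjusted p = 3.68e-10). Oas3, an RNA sensor, had 5.36 ± 0.52, adjusted p = 1.04e-07, the nucleotide kinase Cmpk2 4.55 ± 0.39, adjusted p = 2.27e-08, Slfn1 6.04 ± 0.29, Slfn2 3.48 ± 0.30, Ifitm3 4.41 ± 0.38 and Samd9l 4.10 ± 0.37. Not called were Bst2 (-0.13), Mx2 (-0.39) and Trim30a (0.44), and Parp12 was lower (-0.76 ± 0.28, adjusted p = 0.0361). Of 30 tested genes of the interferon-gamma response 14 were called higher and 3 lower, with a median of 0.66, and with library totals 9 were called higher. Gbp2 had 3.30 ± 0.54, adjusted p = 5.00e-05, Ifi47 3.75 ± 0.39, adjusted p = 2.28e-07, Ciita 2.63 ± 0.56, adjusted p = 0.000781 and the GTPase Tgtp2 2.01 ± 0.45. Ifngr1, a chain of the interferon-gamma receptor, was lower (-0.77 ± 0.19, adjusted p = 0.00252), as were Irf8 and Icam1 (-1.45 ± 0.26). The GTPases Igtp (-0.17), Irgm1 (-0.46) and Irgm2 (-0.28) were not called. Left out 1 at a time, the D7 libraries gave 26 to 33 type I genes called higher. Oas3 was at 4.71 without CD45low replicate 1 and 6.00 without CD45low replicate 3. Ciita was at 3.78 without CD45low replicate 1. Gbp2 was at 4.01 without CD45low replicate 3. Parp12 was not called without CD45low replicate 1 (-0.70, adjusted p = 0.0895), CD45low replicate 2 (-0.73, adjusted p = 0.0799), CD45high replicate 1 (-0.52, adjusted p = 0.154) or CD45high replicate 2 (-0.84, adjusted p = 0.0516).

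Genes of antigen presentation by MHC class II were mostly higher in the CD45high gate, with 7 of 11 tested members called higher and 2 lower. H2-Aa, a class II chain, stood at 2400.5, 814 and 1858 CPM in the CD45high libraries and 453, 151 and 499.9 CPM in the CD45low libraries. CD45high replicate 2 and CD45low replicate 2 were the lowest of their gates, and the groups did not overlap (2.21 ± 0.36, adjusted p = 6.12e-05). H2-Ab1 (2.25 ± 0.29), H2-Eb1 (2.34 ± 0.25) and the invariant chain Cd74 (2.06 ± 0.21, adjusted p = 1.58e-07) had like differences. The costimulator Cd86 (-2.32 ± 0.40, adjusted p = 9.45e-05) and H2-Ob, which restrains peptide loading (-2.15 ± 0.45, adjusted p = 0.000694), were lower, while Cd40 was higher (3.47 ± 0.69, adjusted p = 0.000415). Of 18 tested MHC class I genes 10 were called higher and 2 lower, with a median of 0.93. H2-D1 had 1.71 ± 0.22, adjusted p = 3.94e-06, H2-K1 1.24 ± 0.20, adjusted p = 3.82e-05 and the peptide transporter Tap1 1.37 ± 0.31, adjusted p = 0.00143, with the immunoproteasome subunits Psmb8 at 0.88 ± 0.21 and Psmb9 at 1.29 ± 0.27 and H2-Q7 at 2.83 ± 0.42. The peptide trimming enzyme Erap1 (-2.40 ± 0.75) and the chaperone Canx (-1.07 ± 0.20) were lower. Class I genes share sequence with near-identical relatives, which leaves single values uncertain. In the PD-1 axis Pdcd1, which encodes PD-1, had 0 counts in the CD45high gate and 9 in the CD45low gate. Cd274, its ligand, was not called (log2 0.67, adjusted p = 0.313). The phosphatase Ptpn6 (1.02 ± 0.19), the kinase Jak1 (0.58 ± 0.19) and the factor Irf1 (0.66 ± 0.24) were higher. Cd40 was at 4.16 without CD45low replicate 1 and 2.41 without CD45high replicate 3. H2-Ob was at -3.04 without CD45high replicate 1. Erap1 was at -4.06 without CD45high replicate 2. Irf1 was not called without CD45low replicate 1 (0.50, adjusted p = 0.145), CD45low replicate 3 (0.63, adjusted p = 0.0709), CD45high replicate 1 (0.66, adjusted p = 0.0602) or CD45high replicate 2 (0.63, adjusted p = 0.0857). Erap1 was not called without CD45low replicate 2 (-2.005, adjusted p = 0.0655) or CD45high replicate 3 (-1.98, adjusted p = 0.0714). Jak1 was not called without CD45low replicate 2 (0.51, adjusted p = 0.0723).

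Chemokine and cytokine genes were called in both directions. Of 33 tested of 44 ligands 13 were called higher and 8 lower, against 22.3% and 20.5% of all tested genes. Il1b, the precursor of interleukin-1 beta, stood at 1121, 1649 and 860.1 CPM in the CD45high libraries and 37.4, 44.1 and 31.5 CPM in the CD45low libraries. The gates lay far apart, at 4.97 ± 0.31, adjusted p = 4.51e-10. Il1a, interleukin-1 alpha, went the other way (-3.57 ± 0.48, adjusted p = 6.16e-06), with 12 counts over the CD45high libraries and 337 over the CD45low libraries. The neutrophil attractant Cxcl2 had 4.72 ± 0.34, adjusted p = 2.72e-09, the interleukin-1 receptor antagonist Il1rn 265 counts against 3, a ratio of 203 (95% counting interval 68.8 to 991), Tnfsf14 5.73 ± 0.43 and oncostatin M (Osm) 2.42 ± 0.24. The monocyte and lymphocyte attractants Ccl2 (-1.47 ± 0.31, adjusted p = 0.000763), Ccl3 (-1.12 ± 0.19, adjusted p = 0.000104), Ccl4 (-2.31 ± 0.30, adjusted p = 3.24e-06) and Ccl12 (-2.17 ± 0.49) were lower in the CD45high gate, as was the growth factor gene Pdgfb (-2.14 ± 0.40). Ccl3 stood at 464, 591 and 430.1 CPM in the CD45high libraries and 896, 1105 and 1229 CPM in the CD45low libraries. For Il1rn the ratio was 121 (without CD45low replicate 2) to 233 (without CD45high replicate 1). Il1rn had 0 CD45low counts without CD45low replicate 3. Tnfsf14 was at 6.36 without CD45low replicate 2. Pdgfb was at -3.33 without CD45high replicate 1. Ccl12 was at -1.46 without CD45high replicate 3.

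Chemoattractant and cytokine receptors split as well. Of 23 tested chemoattractant receptors 10 were called higher and 9 lower, against 22.3% and 20.5% of all tested genes. Ccr1 had 2.55 ± 0.51, adjusted p = 0.000477, Cxcr4 5.37 ± 0.40, adjusted p = 3.62e-09 and the leukotriene B4 receptor Ltb4r1 4.61 ± 0.46, adjusted p = 1.25e-07, all higher, as was S1pr4 (2.71 ± 0.30). The formyl peptide receptor Fpr1 had 205 counts against 3, a ratio of 157 (95% counting interval 53 to 768). Lower were the chemerin receptor Cmklr1 (-3.06 ± 0.49, adjusted p = 3.99e-05), the sphingosine receptor S1pr1 (-3.05 ± 0.50, adjusted p = 5.58e-05), the complement receptor C3ar1 (-2.96 ± 0.32, adjusted p = 4.58e-07) and the oxysterol receptor Gpr183 (-1.80 ± 0.26). Among 25 tested growth factor and cytokine receptors 8 were called higher and 7 lower, beside the same shares of all tested genes. Csf2ra (1.61 ± 0.23), Csf2rb (1.31 ± 0.20) and Csf3r (1.13 ± 0.20), receptors for the factors that drive granulocytes and monocytes, were higher, as were Il17ra (1.03 ± 0.19) and the shared chain Il2rg (3.29 ± 0.30, adjusted p = 4.87e-08). Il21r (-2.74 ± 0.29, adjusted p = 3.39e-07), Il10ra (-1.03 ± 0.20) and Lifr (-1.06 ± 0.35) were lower, and with library totals 12 of these receptors were called lower. For Fpr1 the ratio was 97.7 (without CD45low replicate 1) to 281 (without CD45low replicate 2). Ltb4r1 was at 5.86 without CD45low replicate 3. Cmklr1 was at -2.44 and S1pr1 at -3.66 without CD45high replicate 3. Lifr was not called without CD45low replicate 1 (-0.72, adjusted p = 0.140) or CD45high replicate 3 (-0.83, adjusted p = 0.110).

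Most tested genes of the TGF-beta pathway, which holds microglia in their resting identity, were called lower in the CD45high gate. Of 20 tested of 25 members 12 were called lower and 1 higher, with a median of -1.34. The receptors Tgfbr1 (-2.09 ± 0.28, adjusted p = 6.94e-06) and Tgfbr2 (-1.85 ± 0.24, adjusted p = 3.56e-06), the signal carrier Smad3 (-1.66 ± 0.27) and the induced inhibitors Smad7 (-2.59 ± 0.35, adjusted p = 5.58e-06) and Pmepa1 (-2.94 ± 0.24, adjusted p = 1.05e-08) were all lower. Pmepa1 stood at 166, 143 and 73.2 CPM in the CD45high libraries and 1025, 933 and 915 CPM in the CD45low libraries. Its lowest CD45low value was several times its highest CD45high value. Itgb5 (-1.94 ± 0.29) and Itgav (-1.58 ± 0.37), integrin chains that release active TGF-beta, were lower. The 1 member called higher was Tgfbi, a secreted matrix protein (2.40 ± 0.20, adjusted p = 1.53e-08). Smad7 was at -3.25 without CD45high replicate 1.

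Most genes of nucleotide and adenosine signalling were lower too. Of 17 tested purinergic and ion channel genes 12 were called lower and 3 higher, with a median of -1.55. The ATP-gated channels P2rx7 (-2.35 ± 0.21, adjusted p = 4.52e-08) and P2rx4 (-1.18 ± 0.21), the receptors P2ry6 (-1.55 ± 0.24) and P2ry13 (-2.15 ± 0.27), the adenosine receptor Adora3 (-3.16 ± 0.31, adjusted p = 1.41e-07) and the potassium channel Kcnk6 (-2.63 ± 0.31) were lower. P2rx7 stood at 72.9, 56.4 and 57.2 CPM against 291, 338 and 320.3 CPM. Nt5e, which makes adenosine from AMP, had 50 counts in the CD45high gate and 0 in the CD45low gate, at least 38.3-fold higher. Adora2b, another adenosine receptor, had 36 counts against 2, and the ATP release channel Panx1 was higher (1.69 ± 0.44). The nucleoside transporter Slc29a3 (-2.12 ± 0.19) and Entpd1, which breaks down ATP (-1.48 ± 0.19), were lower. Integrins and adhesion molecules split, with 13 of 29 tested called higher and 11 lower. Leukocyte homing molecules such as the integrin chains Itgb7 (5.23 ± 0.36), Itga4 (3.77 ± 0.26) and Itgb2 (1.55 ± 0.18) and the adhesion molecule Amica1 (6.81 ± 0.36) were higher, while Itga6 (-2.89 ± 0.35), Itga9 (-3.12 ± 0.48), Cd81 (-1.96 ± 0.26) and Cd34 (-3.77 ± 0.40, adjusted p = 3.49e-07) were lower. For Adora2b the ratio was 24.7 (without CD45low replicate 2) to 46.9 (without CD45high replicate 2). For Nt5e the lower bound was 22.9 (without CD45low replicate 2) to 46.9 (without CD45high replicate 1). Adora2b had 0 CD45low counts without CD45low replicate 3. Itga9 was at -3.84 without CD45high replicate 1 and -2.39 without CD45high replicate 3. Amica1 was at 7.54 without CD45low replicate 1. Itga6 was at -3.51 and Cd34 at -4.96 without CD45high replicate 1. Panx1 was not called without CD45high replicate 3 (1.24, adjusted p = 0.0563).

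Innate receptors differed in both directions. Of 30 tested pattern recognition receptors 14 were called higher and 8 lower, with a median of 1.00. C-type lectins were higher where called. Clec4e, which senses mycobacterial lipids, had 461 counts against 3, a ratio of 353 (95% counting interval 120.2 to 1719.8), and Clec4d had 144 against 0, at least 110.4-fold higher. Toll-like receptors were lower where called, with Tlr7 at -2.10 ± 0.44, adjusted p = 0.000728, Tlr4 at -1.29 ± 0.27, adjusted p = 0.000668 and Tlr1 at -2.04 ± 0.45. Tlr3, the sensor of double-stranded RNA, had 1 count over the CD45high libraries and 114 over the CD45low libraries. Ly86 was lower as well (-0.92 ± 0.22), while Trem3 was higher (4.24 ± 0.62). The adaptor Myd88 (1.16 ± 0.22, adjusted p = 0.000229) and its inhibitor Irak3 (3.07 ± 0.43, adjusted p = 8.57e-06) were higher. Among 15 Fc receptor and signalling genes 8 were higher and 2 lower, with Fcgr4 at 2.53 ± 0.39, adjusted p = 3.02e-05, the kinase Fgr at 4.63 ± 0.33, adjusted p = 2.43e-09 and the kinase Syk at 0.99 ± 0.20, against Fcgr1 at -2.06 ± 0.27, adjusted p = 4.15e-06 and the lipid phosphatase Inpp5d at -1.31 ± 0.20. For Clec4e the ratio was 276 (without CD45low replicate 3) to 659 (without CD45low replicate 1) and for Tlr3 29.4 (without CD45high replicate 3) to 58.4 (without CD45low replicate 3). For Clec4d the lower bound was 65.9 (without CD45low replicate 2) to 138 (without CD45high replicate 3). Tlr3 had 0 CD45high counts without CD45high replicate 1. Trem3 was at 3.63 without CD45low replicate 1, 3.61 without CD45low replicate 2 and 7.03 without CD45low replicate 3. Fgr was at 5.34 without CD45low replicate 3.

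Subunits of the phagocyte NADPH oxidase, which makes superoxide, were higher. Of 9 members, all tested, 7 were called higher and 1 lower. Cybb, the catalytic chain, stood at 1966, 2804 and 3335 CPM in the CD45high libraries and 115, 80.2 and 415 CPM in the CD45low libraries (3.78 ± 0.42, adjusted p = 5.94e-07). Rac2 (2.54 ± 0.25, adjusted p = 1.54e-07), Ncf4 (2.002 ± 0.22), Cyba (1.51 ± 0.37) and Ncf1 (1.07 ± 0.17) were higher, and the proton channel Hvcn1 was lower (-0.48 ± 0.17, adjusted p = 0.0258). Complement genes split, with 6 of 11 tested called higher and 3 lower. Cfb had 33 counts and Cfp, properdin, 34 against 0 in the CD45low gate, at least 25.3-fold and 26.1-fold higher. Cd55, which protects cells from complement, had 25 counts against 2, and the C5a receptor C5ar1 had 1.53 ± 0.32, while C1qc (-1.17 ± 0.33, adjusted p = 0.00669) was lower. Eicosanoid genes were called higher in 7 of 16 tested and lower in 7. The leukotriene pathway genes Alox5 (2.10 ± 0.21, adjusted p = 1.10e-07) and Alox5ap (1.70 ± 0.17, adjusted p = 1.66e-07), the inducible cyclooxygenase Ptgs2 (3.52 ± 0.63, adjusted p = 0.000145) and the phospholipase Pla2g7 (3.61 ± 0.33) were higher. The constitutive cyclooxygenase Ptgs1 (-2.13 ± 0.21, adjusted p = 1.17e-07), the prostaglandin D synthase Hpgds (-3.66 ± 0.33, adjusted p = 3.99e-08), the thromboxane synthase Tbxas1 (-2.17 ± 0.23), Ltc4s, which makes leukotriene C4 (-3.46 ± 0.44), Hpgd (-1.89 ± 0.22) and Pla2g15 (-1.98 ± 0.26) were lower. For Cd55 the ratio was 17.2 (without CD45low replicate 2) to 33.6 (without CD45high replicate 1). For Cfb the lower bound was 15.1 (without CD45low replicate 2) to 34.1 (without CD45high replicate 1) and for Cfp 15.6 (without CD45low replicate 2) to 27.9 (without CD45high replicate 2). Cd55 had 0 CD45low counts without CD45low replicate 3. Cybb was at 4.79 without CD45low replicate 3. Ltc4s was at -4.05 without CD45high replicate 2. Hvcn1 was not called without CD45low replicate 2 (-0.49, adjusted p = 0.0559) or CD45high replicate 2 (-0.40, adjusted p = 0.107).

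Cell cycle genes were higher in the CD45high gate. All 35 tested of 38 members had a positive estimate, and 31 were called higher with a median of 3.21. With no filter 32 of 37 were called higher. Mki67, a marker of cycling cells, stood at 149, 267 and 265 CPM in the CD45high libraries and 3.21, 8.02 and 20.4 CPM in the CD45low libraries. The groups did not overlap, and CD45high replicate 1 was lowest of its gate (4.60 ± 0.45, adjusted p = 1.01e-07). Ube2c had 5.28 ± 0.31, adjusted p = 1.67e-10, Top2a 3.91 ± 0.30, adjusted p = 5.60e-09, Cenpa 3.81 ± 0.32, Ccna2 3.19 ± 0.31, Hmgb2 3.11 ± 0.25 and Birc5 4.23 ± 0.40. Among them were mitotic genes, and the DNA replication genes Mcm5 (2.06 ± 0.38) and Rrm2 (4.25 ± 0.49) were higher as well. Myb, a factor of bone marrow precursors, stood at 9.95, 68.3 and 66.3 CPM against 0, 1 and 20.4 CPM (3.12 ± 0.88, adjusted p = 0.00754). Which cells of the gate carried them was not measured. Myb was at 2.44 without CD45low replicate 1, 2.51 without CD45low replicate 2 and 6.15 without CD45low replicate 3. Mki67 was at 5.29 without CD45low replicate 3.

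Immediate early genes, which rise within minutes of stimulation or tissue handling, leaned to the CD45low gate. Of 25 tested 4 were called higher and 11 lower, with a median of -0.38. Egr1 stood at 1104, 692 and 297 CPM in the CD45high libraries and 2252, 2147 and 2499 CPM in the CD45low libraries (-1.73 ± 0.29, adjusted p = 7.64e-05). Jun (-1.07 ± 0.22, adjusted p = 0.000554), Fosb (-1.24 ± 0.21), Btg2 (-1.11 ± 0.20), Egr2 (-1.99 ± 0.38), Klf4 (-1.14 ± 0.20) and Rhob (-2.06 ± 0.23, adjusted p = 7.32e-07) were lower, while Nr4a1, Dusp2 (1.16 ± 0.31, adjusted p = 0.00534), Gadd45b (1.17 ± 0.32) and Dusp1 (0.58 ± 0.18) were higher. Fos, one of the 5 genes with most counts in the CD45low gate, stood at 3561, 2721 and 2679 CPM in the CD45high libraries and 2326, 2378 and 3314 CPM in the CD45low libraries, with overlapping groups and no call (log2 0.16, adjusted p = 0.514). Heat shock and unfolded protein genes were lower in 10 of 23 tested and higher in 1, with Hspa1a at -2.34 ± 0.55, adjusted p = 0.00173, Herpud1 at -1.30 ± 0.19, Sdf2l1 at -1.100 ± 0.31, Dnajb1 at -0.82 ± 0.19 and Manf at -0.75 ± 0.19, and the constitutive chaperone Hspa8 at 0.73 ± 0.27. Hspa8 was the 1 gene called higher. Hspa1a was at -1.62 without CD45low replicate 2 and -3.21 without CD45high replicate 2. Hspa8 was not called without CD45low replicate 1 (0.65, adjusted p = 0.110), CD45low replicate 2 (0.75, adjusted p = 0.0751) or CD45high replicate 2 (0.46, adjusted p = 0.211). Dusp1 was not called without CD45low replicate 2 (0.51, adjusted p = 0.0654) or CD45high replicate 1 (0.47, adjusted p = 0.0581).

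Glycolysis and oxidative phosphorylation genes leaned to the CD45high gate and lysosomal genes to the CD45low gate. Of 23 tested glycolysis genes 15 were called higher and 4 lower, with a median of 1.72. Pkm, pyruvate kinase, stood at 2145, 2083 and 1885 CPM in the CD45high libraries and 339.9, 309 and 513 CPM in the CD45low libraries (2.40 ± 0.22, adjusted p = 5.16e-08). Gpi1 (2.40 ± 0.22), Pgk1 (2.23 ± 0.24), Hk3 (2.14 ± 0.23), the lactate transporter Slc16a3 (2.61 ± 0.23) and the glucose transporter Slc2a3 (4.40 ± 0.31, adjusted p = 2.23e-09) were higher. Ldhb (-2.82 ± 0.29, adjusted p = 2.58e-07), Hk2 (-1.15 ± 0.34), Pdk1 (-2.34 ± 0.44) and Slc2a5 were lower. Oxidative phosphorylation genes were higher in 21 of 43 tested and lower in 0, with a median of 0.73, for example Cox8a (1.47 ± 0.23, adjusted p = 4.00e-05), Cox6a1 (1.19 ± 0.21), Cox6c (1.38 ± 0.31), Ndufa1 (2.12 ± 0.43), Atp5f1 (1.09 ± 0.20) and Atp5d (1.00 ± 0.21). Lysosomal genes leaned the other way, with 4 of 37 tested called higher and 15 lower and a median of -0.44. Legumain (Lgmn, -1.71 ± 0.33, adjusted p = 0.000321), the cathepsins Ctsf (-3.06 ± 0.42, adjusted p = 6.61e-06) and Ctsl, Tpp1 (-1.53 ± 0.23), Naglu (-1.81 ± 0.27), and Gaa (-1.54 ± 0.28) were lower. Psap, the saposin precursor (0.78 ± 0.18, adjusted p = 0.00182), Gla (2.13 ± 0.51) and the proton pump subunits Atp6v0c (0.74 ± 0.19) and Atp6v1a (0.77 ± 0.29) were higher. Actin and migration genes were higher in 33 of 36 tested and lower in 0, with Rac2 and Lsp1 (2.76 ± 0.22, adjusted p = 1.05e-08), Arpc5 (2.23 ± 0.17), Gsn (4.56 ± 0.33), Ezr (3.57 ± 0.26), S100a11 (5.10 ± 0.36), S100a6 (6.19 ± 0.46) and Tmsb10 (3.23 ± 0.21) among them. Cholesterol and lipid genes were called higher in 5 of 24 and lower in 3, a smaller share than the 42.8% of all tested genes, with Plin2, a lipid droplet coat protein, at 1.84 ± 0.31, adjusted p = 6.42e-05, the sterol regulator Srebf2 at 2.68 ± 0.59, Scd2 at -1.44 ± 0.33, adjusted p = 0.00142 and Fdft1 at -0.78 ± 0.23. Pparg had 7 counts against 0, and its call ended without CD45high replicate 3 (adjusted p = 0.0629), while without CD45low replicate 1 or 2 it was not tested. On reads 10 of these genes were called higher. Pdk1 was at -3.17 without CD45high replicate 1 and -1.66 without CD45high replicate 3. S100a6 was at 6.95 without CD45low replicate 2. Ctsf was at -4.03 and Srebf2 at 1.95 without CD45high replicate 1. Atp6v1a was not called without CD45low replicate 1 (0.87, adjusted p = 0.0503), CD45low replicate 2 (0.51, adjusted p = 0.188) or CD45high replicate 3 (0.44, adjusted p = 0.284). Fdft1 was not called without CD45high replicate 2 (-0.66, adjusted p = 0.0503).

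The genes at both extremes were largely absent from one gate. Among the 12 with the largest increase, all at a mean of at least 50 CPM in the CD45high gate, 8 had 0 counts in the CD45low gate. These were Clec4d, Emp1 (at least 94.3-fold), Mnda (83.6), Sirpb1b (82), 2010002M12Rik (70.5), Mgam (65.2), Steap4 (62.1) and Ear6 (56.7), and the folds in brackets are lower bounds. Mgam is a maltase-glucoamylase, Mnda a nuclear protein of myeloid cells and Steap4 a metalloreductase. Steap4 varied most, at 9.95, 184 and 36.6 CPM against 0 CPM in all 3. Among the others were Epx, Clec4e and Ear1. At the low end, Tmem44 had 1 count over the CD45high libraries and 198 over the CD45low libraries, a depth-adjusted ratio of 86.1 (95% counting interval 15.3 to 3418) in favour of the low gate. Leprel2, a collagen prolyl hydroxylase, had 68.3 (95% counting interval 12.1 to 2714), the gelatinase Mmp2 35.4 (95% counting interval 9.65 to 295), Eva1a 31.3 (95% counting interval 10.6 to 153), Csmd3 28.9 (95% counting interval 7.85 to 241) and Amotl1 28.1 (95% counting interval 9.48 to 138). Gm3317 and Gm3488 had identical values in every library and are uncertain as separate genes. Liph, a lipase that makes lysophosphatidic acid, had -4.75 ± 0.62, adjusted p = 4.00e-06, Ecscr -4.65 ± 0.45, adjusted p = 9.43e-08, Tom1l1 -4.73 ± 0.51, adjusted p = 3.51e-07 and Gtf2h2 -4.51 ± 0.60, adjusted p = 5.24e-06. Without CD45low replicate 2 the 8 bounds were 33.9 (Ear6) to 65.9 (Clec4d), and that of Steap4 was 21.2 without CD45high replicate 2. For Tmem44 the ratio was 51.1 (without CD45high replicate 3) to 103 (without CD45low replicate 2), for Leprel2 40.5 (without CD45high replicate 3) to 74.8 (without CD45low replicate 1), for Mmp2 21 (without CD45high replicate 3) to 37.5 (without CD45low replicate 2), for Eva1a 21.2 (without CD45low replicate 1) to 67.6 (without CD45high replicate 1), for Csmd3 17.2 (without CD45high replicate 3) to 34.2 (without CD45low replicate 2) and for Amotl1 25 (without CD45high replicate 3) to 31 (without CD45low replicate 3). Tmem44 had 0 CD45high counts without CD45high replicate 2, Leprel2 had 0 CD45high counts without CD45high replicate 2, Mmp2 had 0 CD45high counts without CD45high replicate 1 and Csmd3 had 0 CD45high counts without CD45high replicate 1. Ecscr was at -5.49 without CD45high replicate 1 and -3.91 without CD45high replicate 3. Liph was at -5.48 without CD45high replicate 2 and -4.02 without CD45high replicate 3. Tom1l1 was at -5.56 without CD45high replicate 2.

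The 5 genes with most counts in the CD45high gate were Ngp, Lyz2, Actb, Mmp8 and Tmsb4x. Lyz2, lysozyme of macrophages and neutrophils, stood at 4678, 4780.1 and 4735 CPM in the CD45high libraries and 547, 422 and 1503 CPM in the CD45low libraries (2.53 ± 0.32, adjusted p = 3.26e-06). Those of the CD45low gate were Cx3cr1, H3f3b, Itm2b, Fos and Serinc3. Of these Cx3cr1 alone was called, and H3f3b (-0.11), Itm2b (0.16) and Serinc3 (-0.26) were not. Lyz2 was at 3.28 without CD45low replicate 3.

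The same gates were sorted at D14, from 2 CD45high and 3 CD45low libraries that share none with D7. There 3212 genes were called (35.5%). Of the 2021 genes called higher at D7, 1998 had the same sign at D14 and 1598 were called, and of the 1853 called lower, 1806 had the same sign and 1083 were called, with 0 called in the opposite direction. Both come from 1 fit and share its estimate of the spread. A direct test of the difference between the D7 and the D14 gate difference called 0 of 9058 genes in edgeR, with a smallest adjusted p of 0.626 and 542 genes at an unadjusted p under 0.05. DESeq2 called 0 with 479 at an unadjusted p under 0.05. The genes of lowest p in that test included Csf1, the ligand of Csf1r, with a log2 gate difference of 0.27 at D7 and -1.95 at D14. They also included the adhesion adaptor Lpxn, with -2.09 and -0.21, C3ar1, with -2.96 and -1.19, and Arhgef18, with 2.45 and 0.75. Pacsin1 had 0.03 and -6.79, Cacna1a 0.07 and -2.32, Slc22a17 -1.44 and -3.55, and Maml2 -4.02 and -1.86. None of these differences between times passed the threshold.

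For abundant transcripts the deposited tables disagreed. Of the 100 genes with most reads over the 6 libraries, the scaled table held at least 2 times as many reads as counts for 29 and at least 10 times for 10, among them Hist1h2ao, Rpl8 and Rplp1 with 0 counts. For 38 the ratio was under 1.1, and the median was 1.19 (SD over the 6 libraries 0.0397). For the 6602 genes from 100 up to, but not including, 1000 reads the median was 1.08. Cst3, a protease inhibitor with the most reads, had 16631 reads and 6835 counts, S100a9, an alarmin of neutrophils, 15424 and 1673, and Apoe 9970 and 1512. S100a8, the partner of S100a9, had 7863 reads and 56 counts, while Ngp had 10221 and 9869. Ltf, lactoferrin, had 7475 reads and 1731 counts, the ferritin gene Fth1 6455 and 1879, and the ubiquitin gene Ubb 6375 and 1746. Levels of such genes in the count table are uncertain. The sources used here do not say which step by the authors made the difference.

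Where both tables could be tested, gate differences moved far less than levels. Of the 100 genes 96 were tested on counts, 91 kept the same call on reads, and 1 fold differed by more than 0.5 on the log2 scale. That gene was S100a8, at 3.30 ± 0.71 on counts and 2.49 ± 0.42, adjusted p = 9.08e-05 on reads. S100a9 had 2.32 ± 0.35 on counts and 2.65 ± 0.40, adjusted p = 2.90e-05 on reads. Without CD45low replicate 3, S100a9 was at 3.21 on counts. Camp, the cathelicidin of neutrophil granules, had 4 counts in all and could not be tested on them. In the second table it stood at 1802, 2063 and 2080.0 reads in the CD45high libraries and 444, 315 and 1352 reads in the CD45low libraries, called higher (2.35 ± 0.53, adjusted p = 0.00140). Of the 100 genes 4 changed sign, and none of them was called in either table. Cst3 had 0.12 on counts and -0.17 on reads, the protease Ctss 0.26 and -0.10, Selplg 0.03 and -0.04, and the lysosomal progranulin Grn 0.0018 and -0.13. Over the 9056 genes tested in both tables the log2 fold changes had a Pearson r of 0.99 across genes, which are not independent and share libraries, and a median absolute difference of 0.05. For 89 of these genes the log2 fold changes differed by over 1. Among the genes called on counts, 174 had a fold that moved by over 1.5 times on reads. Of 3873 genes called on counts 3757 were called in the same direction on reads, 115 were not called and 1 was called in the opposite direction. The last was Hist1h2ac, which belongs to a histone family of near-identical genes and is uncertain. It had 17, 5 and 6 counts in the CD45high libraries and 237, 248 and 66 in the CD45low libraries (log2 -2.97 ± 0.41, adjusted p = 8.02e-06), but 191, 326 and 390 reads in the CD45high libraries and 405, 402 and 151 in the CD45low libraries (log2 1.13 ± 0.22, adjusted p = 0.000339).

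**Figure D5:**
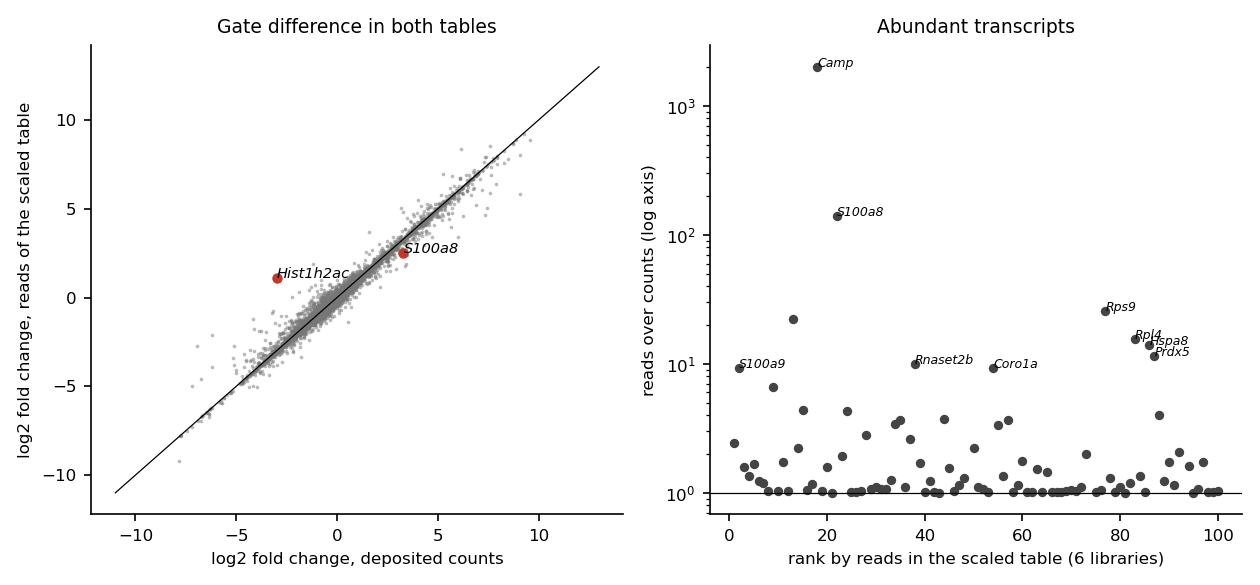
Left, log2 fold change CD45high minus CD45low on the reads of the scaled table (vertical axis) against the deposited counts (horizontal axis) for the 9056 genes tested in both, with the line of equality and Hist1h2ac and S100a8 in red. Right, ratio of reads to counts (vertical log axis) for the 100 genes with most reads, by rank (horizontal axis; genes with 0 counts are not drawn); 38 of the 100 genes lie under a ratio of 1.1, and Camp, S100a8 and Rps9 lie farthest above 1.

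The second table also held genes that the counts could not test. On reads 10390 genes were tested and 4643 called (44.7%), 2454 higher (23.6%) and 2189 lower (21.1%). Of 1334 genes tested on reads alone 521 were called. Of the 1334, 498 had 0 counts in all 6 libraries or were not listed in the count table. Complement C3 was one, called higher at 3.82 ± 0.52, adjusted p = 8.34e-06, with 280.0, 384 and 622 reads in the CD45high libraries and 32, 21 and 114 reads in the CD45low libraries. The neutrophil protease Ctsg (5.56 ± 1.00, adjusted p = 0.000181), the decoy receptor Il1r2 (6.35 ± 0.44, adjusted p = 2.47e-09) and the mitotic gene Cdc20 (4.06 ± 0.56, adjusted p = 1.07e-05) were others, each with 0 counts. Among the 498 genes, 307 are listed in the second table alone. Neat1, a long noncoding RNA of nuclear paraspeckles, was among them and was called higher relative to depth, with 317, 295 and 346 reads in the CD45high libraries and 360, 522 and 250 reads in the CD45low libraries (log2 0.97 ± 0.19, adjusted p = 0.000498). Cytoplasmic ribosomal protein genes differed in number tested between the tables. On counts 23 of 76 were tested and 10 called higher with 0 lower, and on reads all 76 were tested and 68 called higher with 0 lower, with medians of 0.74 and 1.06. Without CD45high replicate 3, 6 were called higher on counts. Among those called on counts were Rps24 (1.55 ± 0.38), Rpl41 (1.35 ± 0.19), Rps29 (1.04 ± 0.22), Rpl9 (1.44 ± 0.41), Rplp0 (1.38 ± 0.44) and Rps9 (1.17 ± 0.30). Ribosomal protein genes have many near-identical pseudogenes, so single values are uncertain. On reads 39 of 62 oxidative phosphorylation genes were called higher, and 0 lower, and 20 of the lysosomal genes were called lower. Rplp0 was not called without CD45low replicate 1 (1.27, adjusted p = 0.0562) or CD45high replicate 3 (1.27, adjusted p = 0.0600).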

How the data were processed

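RNA read near the 3′ end was measured in libraries of sorted brain myeloid cells, and the extraction protocol in the labels describes choroid plexus, so how the sorted cells were extracted is not given here. Bowtie2, HOMER and the build mm9 are named in the submitters' processing notes, with no version or role. The authors deposited a table of raw counts for 19762 genes, per the file headers, and a table of signal for 23954 genes, in which each library is scaled by a factor that the headers print. The deposited signal values came out as whole reads in 100% of values, within 0.05 of a read, and those reads were used as an alternative. Of 19759 genes shared by both, 90.1% have the same transcript identifier.

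Counts were tested in R 4.3.3 with edgeR 4.0.16 (TMM factors, filterByExpr by group, quasi-likelihood F-test), with 11 sorted libraries of D7 and D14 in 4 group means, 7 residual degrees of freedom and a coefficient of biological variation of 0.225. The contrast was CD45high minus CD45low at D7. SE is the size of the fold change over the root of F. Gates that do not overlap have every library of one gate above every library of the other. Ratios of summed counts have exact binomial 95% counting intervals, and a gene at 0 was set to 3 counts over the 3 libraries of the gate for a lower bound. These cover counting error only, since reads without molecular identifiers are not independent molecules. Genes were named if they were Ptprc or Itgam, the 12 largest increases or decreases called in both tables without overlap and with at least 50 CPM in the higher gate, up to 6 called members of lowest p per direction in a list or members with a defining role, the 12 genes with most reads among those with reads at least 2 times the counts, the 8 of lowest p in the difference between times, or the 5 most abundant per gate. Some genes picked this way are not reported here. Hist1h2ac, Neat1 and the genes named for reads in the second table alone were chosen after their values were seen. Members and lists were chosen with earlier results of these data known. Alternatives were the recovered reads, RLE factors, library totals, no filter, DESeq2 1.42.0, glmTreat, the title number as a block, the 6 D7 libraries alone and each library left out. Leaving out libraries for ratios of few counts was added after seeing the data. The fits were checked on simulated data. The choroid plexus libraries were not used here.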

Additional observations from a re-analysis of the deposited data

How the results depend on the processing

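The gate difference at D7 kept its direction for every one of the 3874 called genes that an alternative on counts tested, and 7 had the opposite sign on reads. Genes called numbered 3851 with RLE factors, 4228 with library totals, 4184 without a filter, 3721 with DESeq2, 3164 of 7639 with the D7 libraries alone, 4643 on reads and 3311 to 3901 with 1 library left out. Against a 2-fold change glmTreat called 1846, of which 1098 were higher and 748 lower. Of 338 called genes named in the text, 321 to 337 stayed called in the same direction under these alternatives, other than with the D7 libraries alone, where 307 of 316 tested did, and glmTreat, which was not read per gene.

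At D7 the titles of both gates share the numbers 11, 12 and 13, and whether equal numbers mark pairs is not given here. The main test did not pair them. Correlations of deviations from the means of so few libraries cannot settle the question. Libraries of the same number had correlations of 0.057, 0.014 and 0.043 at D7, none over 0.1, although each D7 library correlated best with its own number, a hint from the data and not the design. With the number as a replicate block 3589 genes were called, and the difference between D7 and D14 called 1 gene. That difference called 31 of 13942 genes without a filter and 0 in the other alternatives. The cause was not tested.

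The median ratio of reads to counts was 1.30 over the top 50 genes and 1.16 over the top 200. Itgam was at 0.46 on reads, 0.24 with library totals and 0.39 to 0.66 with 1 library left out. Among genes that were not called, the sign turned on reads for Cacna1a (-0.12), Cst3 (-0.17), Ctss (-0.10), Grn (-0.13), Pacsin1 (-0.23) and Selplg (-0.0392). With library totals it turned for Axl (-0.0622), Cacna1a (-0.20), Cst3 (-0.13), Fos (-0.0943), Grn (-0.25), Itm2b (-0.10), Pacsin1 (-0.23), Selplg (-0.22) and Spp1 (-0.21), with the D7 libraries alone for Grn (-0.00352), and without a filter for Grn (-0.0557), Pacsin1 (-0.0292), Selplg (-0.0258) and Spp1 (-0.00421). With 1 library left out the ranges were -0.20 to 0.53 for Axl, -0.29 to 0.20 for Bst2, -0.53 to 0.0882 for C1qa, -0.0119 to 0.20 for Cacna1a, -0.0753 to 0.47 for Csf1, -0.0259 to 0.34 for Cst3, -0.0901 to 0.18 for Grn, -0.22 to 0.0278 for H3f3b, -0.38 to 0.0307 for Igtp, -0.53 to 0.17 for Irgm2, -0.0155 to 1.21 for Mrc1, -0.17 to 0.36 for Pacsin1, -0.0839 to 0.26 for Selplg, -0.42 to 0.46 for Spp1 and -0.10 to 0.74 for Trim30a.

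Depth limits genes with few counts: 0 counts allow up to 3.24 to 8.74 CPM, depending on the library. With fewer than 4 libraries a gate, single outlying values were not tested.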
